A study of Homo sapiens with 9 samples.

Results

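The effect of raising a short heat shock by 2 °C was described in U937, a line of human lymphoma cells that carries many features of monocytes. Of the 9 arrays of the series, 4 were used: cells heated for 15 min at 44 °C and returned to 37 °C for 1 h or for 3 h, and cells heated for 15 min at 42 °C and returned to 37 °C for the same times. The arrays were chosen by the temperature and recovery time in their labels and were paired by time. An untreated control, and the arrays taken at 0 h and 6 h of recovery after either temperature, are given where they place a value. Each condition had 1 array, and nothing in the labels says whether the arrays came from separate cultures.

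Cells answer heat by binding unfolded proteins with chaperones and by releasing heat shock factor 1 (HSF1), which forms a trimer, binds heat shock elements in promoters and drives transcription of the chaperone genes. HSP70 proteins and the HSP40 proteins that activate them, HSP110 exchange factors, HSP90 and the small heat shock proteins hold, refold or sort damaged proteins, while many other messages are made or spliced less during the shock. Stress kinases of the JNK and p38 families also switch on immediate early transcription factors such as EGR3 and JUN, and dual specificity phosphatases switch the kinases off again. Stronger shocks can kill cells, and the series as a whole concerns apoptosis after heat stress.

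Signals are given on a scale on which each array has a trimmed mean of 100, with a floor of 12.5 below which a value is not read, and differences are log2 of the 44 °C signal over the 42 °C signal at the same recovery time. Where 1 of the signals was at the floor, the difference is a bound. Before scaling, the trimmed means were 211 and 204.8 on the 44 °C arrays at 1 h and 3 h, against 140 and 101 on the 42 °C arrays, so both 44 °C arrays were the brighter ones and array brightness and temperature cannot be told apart. The share of probe sets above the floor was 50.4% and 48.3% at 44 °C, against 51.5% and 50.03% at 42 °C. The 3′ to 5′ ratio of the ACTB probe sets, a sign of RNA integrity, was 1.33 and 1.31 at 44 °C, against 1.32 and 1.36 at 42 °C. Among 19775 genes with a probe set of their own, 11889 were above the floor on at least 2 of the 4 arrays and were counted.

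Of 82 heat shock genes counted, 15 were at least 2-fold lower after 44 °C than after 42 °C at 1 h (18.3%, against 2.04% of all genes) and 5 at 3 h (6.1%, against 1.49%), and none was 2-fold higher. These genes were listed with earlier results of these data known, so the shares are a description and no test. At 1 h, 7 of the 15 were from the list of BAG, HSP60 and other heat-induced genes. After quantile normalisation, which gives all arrays the same distribution of signals, 12 and 3 of the 82 were 2-fold lower at 1 h and 3 h. There 202 and 176 of all 11900 genes counted were 2-fold lower. Under trimmed mean scaling SERPINH1 and HSPH1 were the 2 lower at both times, and EGR3 was among the genes higher at both. HSPH1 no longer reached 2-fold at 3 h after quantile normalisation (-0.52). Over all genes at 1 h, 197 genes were at least 2-fold higher at 44 °C (1.66% of those counted) and 242 at least 2-fold lower (2.04%). At 3 h the counts were 198 higher (1.67%) and 177 lower (1.49%). Both times shared 29 higher genes (0.244%), which is 14.7% of the 1 h genes and 14.6% of the 3 h genes, and 34 lower genes (0.286%), which is 14.05% and 19.2%. The 1 h and 3 h differences share no array, and they ran the same way for 154 of the 197 genes higher at 1 h and for 185 of the 242 lower at 1 h. Most of all genes counted also ran the same way, with 34.7% positive at both times and 33.5% negative at both. Over all 11889 genes the differences at both times had a Pearson r of 0.44 (0.41 after quantile normalisation), a description across genes that share the same 4 arrays.

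**Figure D1:**
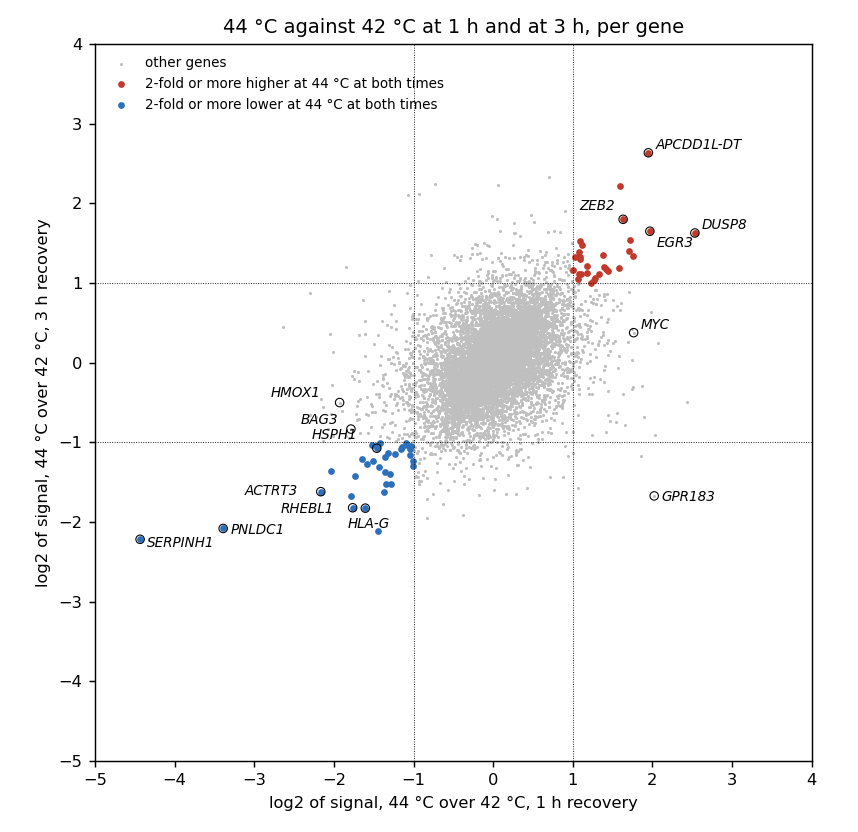
Each point is 1 gene, with log2 of the 44 °C over the 42 °C signal at 1 h of recovery on the horizontal axis and at 3 h on the vertical axis; dotted lines mark 2-fold. The 29 genes higher at both times lie in the upper right corner and the 34 lower at both times in the lower left, where SERPINH1 and PNLDC1 lie farthest out.

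With 1 array per condition there is no test at a single time. A limma model over the 4 arrays, with recovery time as a block, left 1 residual degree of freedom before moderation, and its error holds any true difference between times as well as array error. It called 460 genes higher (3.87% of 11889) and 445 lower (3.74%) at a Benjamini-Hochberg adjusted p under 0.05. After quantile normalisation the same model called 348 higher and 224 lower, so many of the lower calls depend on the scaling. It called 0 genes without the trend of variance on signal (1291 higher and 1095 lower at an unadjusted p under 0.05), 0 with no filter on dim genes (1161 and 1034), 0 with the median over a gene's probe sets (1122 and 1303) and 0 without the time block (998 and 916), so every limma call given here was lost under each of these 4 settings. Of the genes past 2-fold at both times, limma called 28 of the 29 higher and 32 of the 34 lower. Both rules read the same 4 arrays and favour large differences alike at both times, so this overlap gives no separate support. These p-values measure spread among 4 arrays that may not be separate cultures, and the times are not replicates.

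SERPINH1, the collagen chaperone HSP47 of the endoplasmic reticulum, showed the widest gap of all genes counted at 1 h. Its signal was at the floor at 1 h and 102 at 3 h after 44 °C, against 271 and 475 after 42 °C, and it was at the floor in control cells. It was thus at least 21.6-fold lower at 1 h and 4.65-fold lower at 3 h after 44 °C (limma adjusted p = 0.0167, fitted with the 1 h value at the floor). HSPH1, the HSP110 protein that reloads HSP70 with ATP, read 2127 at 1 h and 4471 at 3 h after 44 °C, against 5857 and 9422 after 42 °C, with 1464 in control cells. Both 44 °C values lay above the control and below both 42 °C values. The differences were -1.46 at 1 h and -1.08 at 3 h, and -1.22 and -0.52 after quantile normalisation, where the 3 h difference no longer reached 2-fold. The 2 other HSPH1 probe sets differed by -2.03 to -0.50 at 1 h and -1.18 to -0.10 at 3 h.

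BAG3, a cochaperone that links HSP70 to autophagy, read 869 at 1 h and 2869 at 3 h after 44 °C, against 2999 and 5118 after 42 °C, and 176 in the control. The 3 h value at 44 °C came close to the 1 h value at 42 °C, while the 1 h value at 44 °C was 3.45-fold below its 42 °C partner. DNAJA4, an HSP40 protein, read 165 at 1 h and 557 at 3 h after 44 °C, against 769 and 894 after 42 °C. The differences of -2.22 at 1 h and -0.68 at 3 h show a gap that was wide at 1 h and under 2-fold at 3 h, and its 3 other probe sets differed by -2.48 to -0.41 at 1 h and -0.69 to 0.28 at 3 h. ZFAND2A, a stress-induced regulator tied to the proteasome, had the same course, with 625 and 2669.8 after 44 °C, against 1743 and 4122 after 42 °C at 1 h and 3 h. DEDD2, which encodes a protein with a death effector domain, read 473 and 1121 after 44 °C, against 1661 and 2162 after 42 °C, and differed by -1.81 at 1 h and -0.95 at 3 h. For BAG3, DNAJA4, ZFAND2A and DEDD2 the 44 °C signal at 3 h was more than 2 times that at 1 h.

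For several chaperone genes with bright signals the difference depended on the scaling. HSPA6, the HSP70 member that is nearly silent without stress, read 3988 at 1 h and 6645 at 3 h after 44 °C, against 7245 and 10652 after 42 °C, and 138 in control cells. All 4 heated values lay far above the control, and the 44 °C value was the lower one at each time. The differences were -0.86 at 1 h and -0.68 at 3 h, but -0.51 and 0.0766 after quantile normalisation, so the direction at 3 h was lost (limma adjusted p = 0.0165, and 0.319 after quantile normalisation). Its probe set may also read the near-identical HSPA7. Under trimmed mean scaling the other HSPA6 probe set differed by -1.34 at 1 h and -0.81 at 3 h. DNAJB1, the main heat-induced HSP40 partner of HSP70, read 4168 and 6661 after 44 °C, against 8129.9 and 12298 after 42 °C at 1 h and 3 h, with differences of -0.96 at 1 h and -0.88 at 3 h, and -0.59 and -0.11 after quantile normalisation. Under trimmed mean scaling the other DNAJB1 probe set differed by -1.20 at 1 h and -0.70 at 3 h. HSP90AA1, the inducible HSP90, read 6523 and 7352 after 44 °C, against 9727 and 13771 after 42 °C. Its differences of -0.58 at 1 h and -0.91 at 3 h shrank to -0.0832 and -0.0779 after quantile normalisation, and HSPD1 (HSP60) and the ubiquitin gene UBB behaved likewise, with quantile differences of -0.0608 and -0.0904 for HSPD1 and -0.0774 and -0.18 for UBB. Under trimmed mean scaling the 3 other HSP90AA1 probe sets ran from -0.85 to -0.58 at 1 h and from -0.87 to -0.62 at 3 h.

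HSPB1, HSPA4L, DNAJA1, FKBP4 and STIP1 were called lower by limma under both scalings. HSPB1, the small heat shock protein HSP27, read 3019 and 4904 after 44 °C, against 6165 and 9119.9 after 42 °C, and differed by -1.03 at 1 h and -0.90 at 3 h (limma adjusted p = 0.00995, and 0.0394 after quantile normalisation). HSPA4L, a relative of HSP110, read 163 and 264 after 44 °C, against 303 and 554 after 42 °C, below 42 °C by about the same amount at both times (-0.89 at 1 h and -1.07 at 3 h). DNAJA1, an HSP40 protein, differed by -1.18 at 1 h and -0.91 at 3 h, and -0.99 and -0.43 after quantile normalisation. FKBP4, an HSP90 cochaperone, differed by -1.06 at 1 h and -0.60 at 3 h, and STIP1, which bridges HSP70 and HSP90, by -0.86 at 1 h and -0.55 at 3 h. CRYAB, the small heat shock protein αB-crystallin, read 34.7 and 102 after 44 °C, against 72.4 and 110.4 after 42 °C, so that its gap of -1.06 at 1 h was -0.12 at 3 h. HSF1 itself read 179 and 152 after 44 °C, against 199 and 159.7 after 42 °C, with differences of -0.15 at 1 h and -0.07 at 3 h. The other HSF1 probe set differed by -0.51 at 1 h and -0.52 at 3 h. The chaperone of the endoplasmic reticulum HSPA5 (BiP), which answers to another stress pathway, read 2825 and 3061 after 44 °C, against 2756 and 4274 after 42 °C, with differences of 0.04 at 1 h and -0.48 at 3 h. The other HSPA5 probe set differed by 0.04 at 1 h and 0.22 at 3 h.

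The 5 lists of heat shock genes cover HSP70 and HSP110, HSP40, HSP90 with its cochaperones, small heat shock proteins, and BAG, HSP60 and other heat-induced genes, and 82 of their genes were counted. They were chosen with earlier results of these data known, so the values below are a description. The median difference was -0.28 at 1 h and -0.23 at 3 h, and -0.18 and -0.13 after quantile normalisation, beside medians of 0 and 0 over all genes counted. In all, 53 of the 82 were negative at both times and 16 positive at both, where 33.5% of all genes were negative at both and 34.7% positive. Limma called 27 lower (32.9%, against 3.74% of all genes) and 1 higher, BAG5. After quantile normalisation it called 15 of the 82 lower, where it called 224 of all 11900 genes lower. Of 32 HSP40 genes, limma called DNAJA1, DNAJA4, DNAJB1 and DNAJC8, all lower (12.5%, against 3.74% of all genes), and 2 lower after quantile normalisation. The other HSP40 genes were not called.

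Set beside the control array, which both temperatures share, 9 of the 82 heat shock genes were at least 2-fold above it at 1 h and 17 at 3 h after 44 °C, against 20 and 23 after 42 °C. Of all genes counted, 1.52% and 1.91% were that far above the control after 44 °C, against 3.12% and 3.19% after 42 °C. None of the 82 was 2-fold below the control on any of these 4 arrays. The median over the control was 0.0624 at 1 h and 0.17 at 3 h after 44 °C, against 0.28 and 0.43 after 42 °C. Most of the 82 were within 2-fold of the control on each of these 4 arrays.

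**Figure D2:**
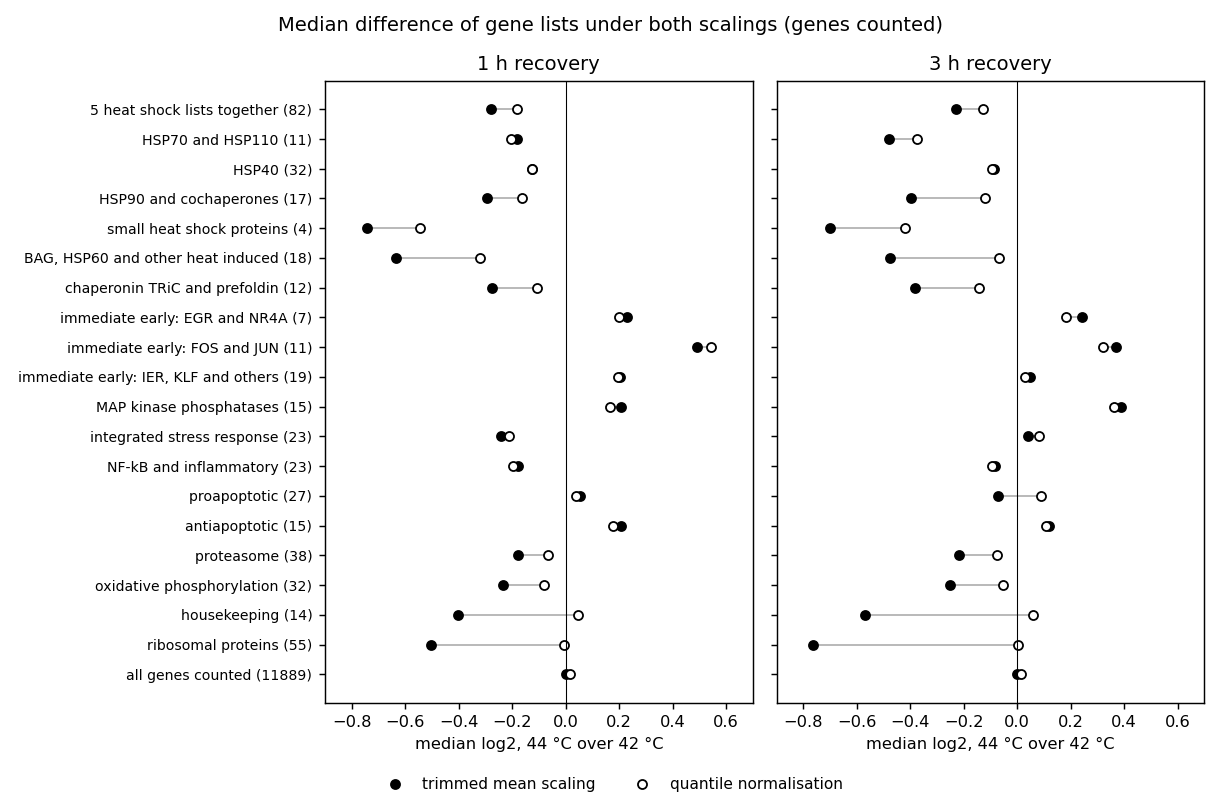
Median log2 of the 44 °C over the 42 °C signal for gene lists at 1 h (left) and 3 h (right), with the number of genes counted in brackets; filled circles are trimmed mean scaling and open circles quantile normalisation. The heat shock lists lie left of 0 under both scalings, the FOS and JUN list lies right of 0, and the ribosomal protein medians of -0.50 and -0.77 move to about 0. The list labelled MAP kinase phosphatases also holds SPRY and SPRED genes, which encode no phosphatase.

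Heat shock factor binds repeats of the unit GAA in alternating orientation, and 5 promoters that carry such repeats are shown, chosen for holding a match. The stretches below are the 250 bases upstream of the RefSeq start site, from GRCh38.p14, 5′ to 3′ on the gene's strand (plus in all 5), with matches of 2 or 3 adjoining units (GAANNTTC or TTCNNGAA, and for 3 units the same with NN and the next GAA or TTC added, both strands) in capitals. SERPINH1 (chr11:75562003-75562252), HLA-G (chr6:29826224-29826473) and IL7R (chr5:35856641-35856890) were lower at both times, and HSPA6 (chr1:161524290-161524539) and HSPB1 (chr7:76302423-76302672) are heat shock genes that did not pass 2-fold at both.
SERPINH1: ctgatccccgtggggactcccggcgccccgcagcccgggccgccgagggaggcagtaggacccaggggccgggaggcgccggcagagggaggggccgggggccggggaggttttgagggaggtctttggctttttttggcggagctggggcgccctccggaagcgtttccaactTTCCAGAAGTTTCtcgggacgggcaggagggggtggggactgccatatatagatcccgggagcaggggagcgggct
HLA-G: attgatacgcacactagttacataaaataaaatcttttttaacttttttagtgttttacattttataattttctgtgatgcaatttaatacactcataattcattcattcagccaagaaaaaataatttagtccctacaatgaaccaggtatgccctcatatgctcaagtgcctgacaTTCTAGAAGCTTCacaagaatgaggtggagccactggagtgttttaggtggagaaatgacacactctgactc
IL7R: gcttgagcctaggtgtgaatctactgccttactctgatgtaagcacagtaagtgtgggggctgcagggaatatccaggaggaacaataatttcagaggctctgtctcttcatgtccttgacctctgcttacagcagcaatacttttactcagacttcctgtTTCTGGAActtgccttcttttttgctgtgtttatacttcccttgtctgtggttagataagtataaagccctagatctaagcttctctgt
HSPA6: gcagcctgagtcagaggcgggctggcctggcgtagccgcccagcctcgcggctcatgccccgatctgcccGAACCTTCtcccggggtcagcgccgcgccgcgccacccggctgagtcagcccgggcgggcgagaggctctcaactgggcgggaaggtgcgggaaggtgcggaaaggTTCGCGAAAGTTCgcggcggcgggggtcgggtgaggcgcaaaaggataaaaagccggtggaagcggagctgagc
HSPB1: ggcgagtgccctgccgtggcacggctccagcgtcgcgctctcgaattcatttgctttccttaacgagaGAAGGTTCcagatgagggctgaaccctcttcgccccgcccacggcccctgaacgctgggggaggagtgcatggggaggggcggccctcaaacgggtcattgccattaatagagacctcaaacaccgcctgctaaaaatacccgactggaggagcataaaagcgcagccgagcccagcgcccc

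SERPINH1, HLA-G and HSPA6 each hold a match of 3 units, which ends 63, 59 and 61 bases before the start site, and IL7R and HSPB1 hold 2 units that end 81 and 174 bases before it. Of the 34 genes lower at both times, 26 had a promoter in the table used, and 4 of them (15.4%) held 2 units and 2 (7.69%) held 3. Of the 29 higher genes 20 had one, with 1 match of 2 units (5%) and 0 of 3. Over the 9670 genes counted that had a promoter, 8.75% held 2 units and 0.341% held 3. A match is a run of letters in this window and not a measured binding site. HSPH1, BAG3, DNAJB1, HSP90AA1 and HSPA5 had none in this window, and JUN, whose signal was higher at 44 °C, had 1 match of 2 units. Only 1 start site per gene was read, so elements at other start sites or farther away are not covered.

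The HLA-G value rests on 1 probe set. HLA-G, a nonclassical class I antigen that inhibits immune cells, read 406 at 1 h and 516 at 3 h after 44 °C, against 1234.3 and 1833 after 42 °C, and 1160.2 in control cells. Both 44 °C values were below the control and both 42 °C values above it, and the differences of -1.60 at 1 h and -1.83 at 3 h gave the smallest limma adjusted p of all genes (0.00325). Its probe set is of a kind that can pick up related transcripts, which class I genes have in number. The other 3 HLA-G probe sets differed by -0.68 to 0.0528 at 1 h and by -0.61 to -0.45 at 3 h, so the size for HLA-G is uncertain.

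Several genes with no known part in protein folding had the order of arrays seen for the chaperones, higher than the control after 42 °C and nearer the control after 44 °C. PNLDC1, an exonuclease that trims piRNAs in germ cells, was at the floor at 1 h and 14.9 at 3 h after 44 °C, against 131 and 63.2 after 42 °C. It was at the floor in control cells too, and after 44 °C it was at least 10.5-fold lower than after 42 °C at 1 h and 4.24-fold lower at 3 h. RHEBL1, a small GTPase related to the mTOR activator RHEB, read 54.8 at 1 h and 88.1 at 3 h after 44 °C, against 186 and 312 after 42 °C, and 37.2 in the control. A second RHEBL1 probe set differed by -1.97 and -1.69, close to the -1.76 at 1 h and -1.82 at 3 h of the first. ACTRT3, an actin-related protein of testis, read 34.9 at 1 h and 60.8 at 3 h after 44 °C, against 156 and 187 after 42 °C, and 21.4 in the control.

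IL7R, IL2RB, MS4A6A and INSR, which encode membrane proteins, were 2-fold or more lower at both times on the probe sets used. IL7R, the interleukin 7 receptor chain, read 14.9 at 1 h and 41.9 at 3 h after 44 °C, against 51.3 and 134 after 42 °C, and 18.2 in control cells. It was below the control at 1 h and above it at 3 h after 44 °C, and above it at both times after 42 °C, with differences of -1.78 at 1 h and -1.68 at 3 h (limma adjusted p = 0.018). IL2RB, a chain of the interleukin 2 and 15 receptors, read 58.7 at 1 h and 124 at 3 h after 44 °C, against 167 and 293 after 42 °C, and 41.2 in the control, so all 4 heated values were above the control. MS4A6A, a membrane protein of myeloid cells, read 65.7 and 103 after 44 °C, against 166 and 295 after 42 °C, with differences of -1.34 at 1 h and -1.52 at 3 h, and its 6 other probe sets ran from -2.23 to -0.74 at 1 h and from -1.17 to -0.24 at 3 h. INSR, the insulin receptor, was below the control after 44 °C (83.0 and 80.2) and above it after 42 °C (183 and 167, control 127). Its 4 other probe sets showed less, -0.86 to -0.27 at 1 h and -0.48 to 0 at 3 h.

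MAST3, a microtubule-associated kinase, read 94.4 at 1 h and 209.8 at 3 h after 44 °C, against 314 and 561 after 42 °C, and 110.5 in the control. NUDT9, which cleaves ADP-ribose, read 116 and 160.5 after 44 °C, against 297 and 415 after 42 °C, and 106 in the control. Both genes were more than 2-fold above the control after 42 °C and stayed within 2-fold of it after 44 °C. ID3, which blocks the DNA binding of helix-loop-helix factors, was at the floor at 1 h and 25.3 at 3 h after 44 °C, against 51.4 and 65.3 after 42 °C. The other named genes lower at both times were NPTX2, a neuronal pentraxin (-1.45 at 1 h and -1.05 at 3 h), and RFPL3 (-1.58 at 1 h and -1.28 at 3 h). TMEM184A and APLN, the gene of the peptide hormone apelin, were at the floor on both 44 °C arrays, at least 2.58-fold and 2.56-fold below 42 °C at 1 h and at least 3.09-fold and 2.27-fold at 3 h. The lower genes numbered 34, and 33 of them had both 42 °C values above the control, 20 of them 2-fold or more. These genes were picked for a 42 °C value above that at 44 °C, and the share over all genes was not counted. After 44 °C both values were within 2-fold of the control in 19 of the 34 and 2-fold or more below it in 3.

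EGR3, a zinc finger factor made within minutes of many stimuli, ranked first among the named genes that were higher at 44 °C and above the floor on all 4 arrays. It read 151 at 1 h and 148 at 3 h after 44 °C, against 38.6 and 47.1 after 42 °C, and 66.8 in control cells. Both 44 °C values lay above the control and both 42 °C values below it, and the gap was 3.91-fold at 1 h and 3.14-fold at 3 h (limma log2 1.81 ± 0.21 SE, adjusted p = 0.0131). The repressor NAB2, which binds EGR proteins and is known to be induced by them, read 94.2 and 77.5 after 44 °C, against 46.6 and 39.9 after 42 °C, and 102 in the control. Its differences of 1.01 at 1 h and 0.96 at 3 h fell just short of 2-fold at 3 h. EGR1 read 365 and 284 after 44 °C, against 311 and 149 after 42 °C, and differed by 0.23 at 1 h and 0.93 at 3 h, with no limma call (adjusted p = 0.087). The 2 other EGR1 probe sets ran from -0.71 to 0.47 at 1 h and from 0.29 to 0.89 at 3 h.

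DUSP8, a phosphatase that inactivates the JNK and p38 stress kinases, had a signal of 72.6 at 1 h and 38.7 at 3 h after 44 °C, and was at the floor on both 42 °C arrays and in the control. This is at least 5.79-fold and 3.09-fold higher, but the other DUSP8 probe set differed by only 0.16 and 0.39. JUN, the target of JNK, read 1123 at 1 h and 1510.5 at 3 h after 44 °C, against 639.6 and 591 after 42 °C, and 503 in the control, and its gap of 0.81 at 1 h was 1.35 at 3 h (limma adjusted p = 0.0134). The 3 other JUN probe sets ran from 0.29 to 1.36 at 1 h and from 0.0839 to 2.19 at 3 h. JUND, its relative, differed by 0.49 at 1 h and 0.96 at 3 h. FOSL1, a FOS-type partner of JUN, read 99.9 and 69.7 after 44 °C, against 62.2 and 22.5 after 42 °C, and differed by 0.68 at 1 h and 1.63 at 3 h. FOS read 61.3 and 90.4 after 44 °C, against 76.0 and 106 after 42 °C, with differences of -0.31 at 1 h and -0.23 at 3 h and a limma adjusted p of 0.436. MAFF, a small MAF factor, differed by 0.88 at 1 h and 0.60 at 3 h (limma adjusted p = 0.0302).

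MYC, the growth-promoting factor that binds DNA with MAX, was below the control on all 4 arrays, least so at 1 h after 44 °C. It read 1914 at 1 h and 787 at 3 h after 44 °C, against 564 and 607 after 42 °C, and 3123 in control cells. The gap of 1.76 at 1 h was 0.38 at 3 h, and limma made no call over both times (adjusted p = 0.061). IER2, another immediate early gene, also differed mainly at 1 h, with 2074 and 801 after 44 °C, against 644 and 669 after 42 °C. MNT, which competes with MYC for MAX, read 189 and 103 after 44 °C, against 57.6 and 35.6 after 42 °C, and 193 in the control, and stayed 3.28-fold and 2.90-fold higher at 44 °C. ZFP36L2, an RNA-binding protein that speeds decay of AU-rich messages, read 3010.0 and 2393 after 44 °C, against 1629 and 1345 after 42 °C, and differed by 0.89 at 1 h and 0.83 at 3 h (limma adjusted p = 0.00954). Some immediate early genes went the other way at 1 h, such as NR4A1 at -1.78, KLF2 at -1.24 and ZFP36 at -1.13, and none of these reached 2-fold at 3 h.

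The 4 lists of immediate early genes and MAP kinase phosphatases had 52 genes counted. The phosphatase list also held SPRY1, SPRY2, SPRY4, SPRED1 and SPRED2, which encode no phosphatase. At 44 °C, 7 of them (13.5%) were 2-fold higher and 5 (9.62%) lower at 1 h, where 1.66% and 2.04% of all genes were. At 3 h, 6 (11.5%) were higher and 2 (3.85%) lower, where 1.67% and 1.49% of all genes were, and EGR3 and DUSP8 were higher and ID3 lower at both. The median difference was 0.22 at 1 h and 0.25 at 3 h (0.20 and 0.22 after quantile normalisation), with 24 genes positive at both times and 11 negative. Limma called 9 higher (17.3%) and 2 lower (3.85%), against 3.87% and 3.74% of all genes. These lists too were chosen with earlier results of these data known, so the shares are a description. Set beside the control, 10 and 15 of the 52 were 2-fold above it at 1 h and 3 h after 44 °C, against 11 and 11 after 42 °C, while 0 and 4 were 2-fold below it after 44 °C, against 10 and 8 after 42 °C. Of all genes, 0.707% and 2.3% were 2-fold below the control after 44 °C, against 2.49% and 5.09% after 42 °C.

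Of the 29 genes higher at 44 °C at both times, 24 had both 42 °C values below the control. They were picked for a 42 °C value below that at 44 °C, and the share over all genes was not counted. CUL3, the scaffold of a family of ubiquitin ligases, read 1090.3 at 1 h and 1222 at 3 h after 44 °C, against 408 and 539.5 after 42 °C, and 1323 in the control. The 44 °C values stood close to the control and the 42 °C values well below it, and a second CUL3 probe set differed by 1.05 and 0.92. DBR1, the enzyme that opens intron lariats, read 219.6 and 181 after 44 °C, against 65.1 and 71.7 after 42 °C, and 158 in the control. INTS5, a subunit of the Integrator complex that ends transcription of small nuclear RNAs, read 137 and 102 after 44 °C, against 64.2 and 41.5 after 42 °C, and 168 in the control. DNAAF2, an assembly factor for axonemal dynein, read 153 and 112 after 44 °C, against 56.2 and 50.6 after 42 °C, and 190.1 in the control. For these 4 genes the differences lay between 1.10 and 1.75 at 1 h and between 1.15 and 1.34 at 3 h.

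CCL2, a chemokine that attracts monocytes, read 783 at 1 h and 858 at 3 h after 44 °C, against 372 and 398 after 42 °C, and 1464 in control cells, so it was below the control on all 4 arrays and 2.10-fold and 2.15-fold higher at 44 °C. TNFRSF12A, the receptor for the cytokine TWEAK, had the same order with 92.7 and 63.1 after 44 °C, against 40.8 and 28.9 after 42 °C, and 171 in the control. ZEB2, a zinc finger repressor, read 386 at 1 h and 264 at 3 h after 44 °C, against 124 and 75.8 after 42 °C, and 197 in the control. Its 44 °C values were above the control and its 42 °C values below, and its 3 other probe sets differed by 0.16 to 1.75 at 1 h and 0.22 to 1.17 at 3 h. RPRD2, which binds the tail of RNA polymerase II, differed by 1.10 at 1 h and 1.11 at 3 h, and its other probe sets showed no such gap at 3 h (-0.0385 to 0.0204). The remaining named genes were ANKRD13C (1.18 at 1 h and 1.21 at 3 h), PRR22 (2.16-fold and 2.78-fold) and the transcribed pseudogene ABCA17P (1.58 at 1 h and 1.18 at 3 h). LRRC25, a membrane protein of myeloid cells, was at the floor on both 42 °C arrays and at least 2.60-fold and 2.55-fold higher at 44 °C.

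The 29 genes higher at both times were measured against the shared control array as well. After 44 °C both values were within 2-fold of the control in 18 of the 29 and 2-fold or more above it in 6, while after 42 °C both were 2-fold or more below it in 14 and above it by that much in 0. By the mean size of their difference from the control, 19 of the 29 higher genes and 26 of the 34 lower genes were nearer to the control after 44 °C than after 42 °C. The share over all genes was not counted, but all genes leaned the same way. At 1 h 3.12% of them were 2-fold above the control and 2.49% below it after 42 °C, against 1.52% and 0.707% after 44 °C. Since 1 control array serves all of these values, this describes where the arrays lie and is no test.

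**Figure D3:**
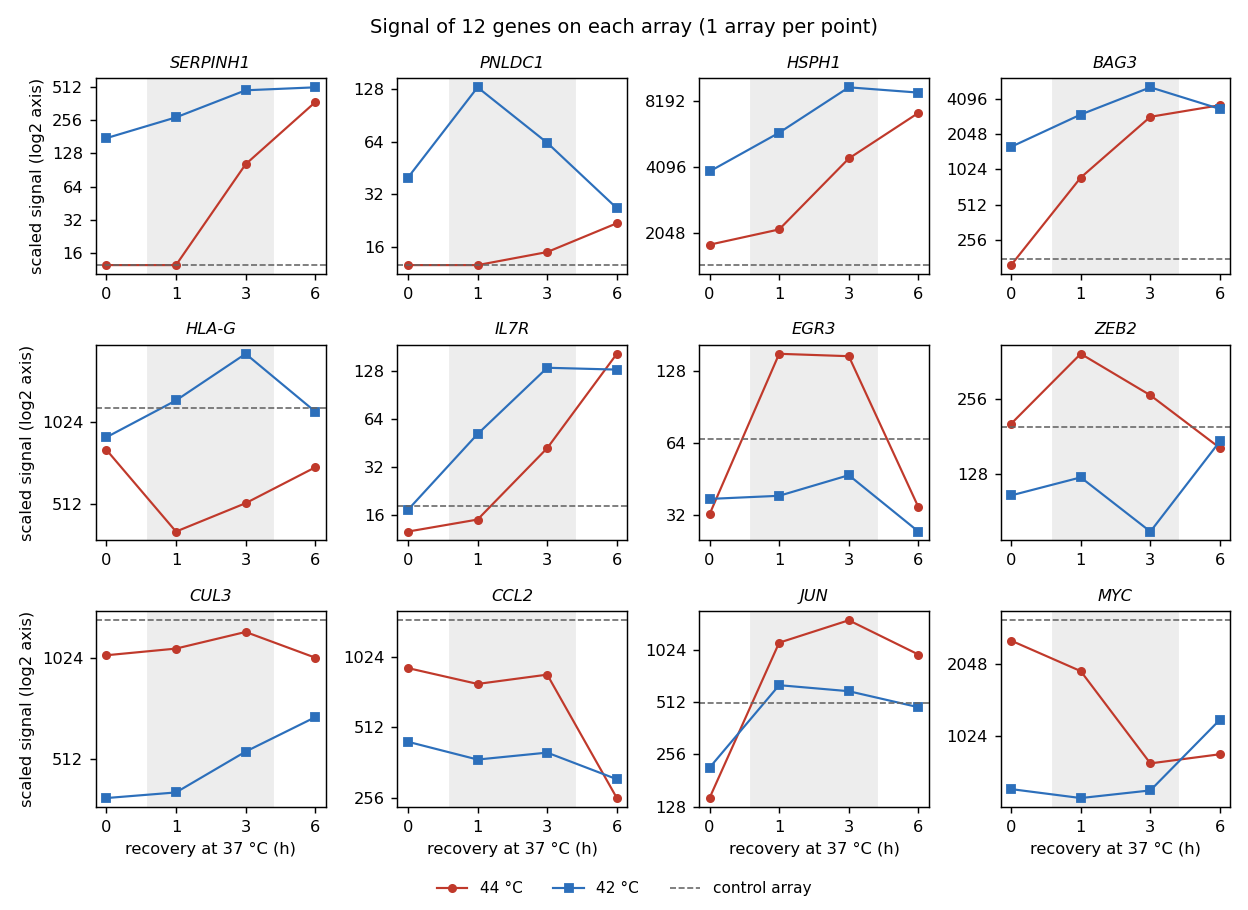
Scaled signal (log2 axis) of 12 genes against hours of recovery at 37 °C, with 1 array per point; circles are 44 °C, squares 42 °C, the dashed line is the control array, and shading marks 1 h and 3 h. SERPINH1, HSPH1 and BAG3 rise later after 44 °C and come near the 42 °C signal by 6 h, EGR3 is above its control line at 1 h and 3 h after 44 °C and at no time after 42 °C, and CUL3 and CCL2 start higher at 0 h after 44 °C.

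At the end of heating, 304 genes were 2-fold higher at 44 °C (2.56%) and 143 lower (1.2%), and at 6 h 161 were higher (1.35%) and 237 lower (1.99%). SERPINH1 differed by -3.81 at 0 h and -0.45 at 6 h, HSPH1 by -1.11 at 0 h and -0.31 at 6 h, BAG3 by -3.35 at 0 h and 0.11 at 6 h and HSPA6 by -5.18 at 0 h and 0.54 at 6 h. For these 4 genes the 44 °C signal was lower from the first array on, and by 6 h the gap had nearly closed or turned. EGR3 differed by -0.21 at 0 h and 0.34 at 6 h and ZEB2 by 0.95 at 0 h and -0.09 at 6 h. CUL3 differed by 1.41 at 0 h and 0.59 at 6 h, CCL2 by 1.05 at 0 h and -0.27 at 6 h and HLA-G by -0.15 at 0 h and -0.68 at 6 h. The median of the 82 heat shock genes was -0.16 at 0 h and -0.0435 at 6 h. A limma test of whether the temperature effect at 1 h and 3 h differed from that at 0 h and 6 h called 0 of 11889 genes, with 647 at an unadjusted p under 0.05 (0 and 669 after quantile normalisation), and the smallest adjusted p was 0.837. The courses of single genes are therefore given as values.

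Few genes of other stress and death pathways were past 2-fold, and few of all genes were. HMOX1, the haem oxygenase induced by oxidants and heat, read 119 at 1 h and 526 at 3 h after 44 °C, against 452 and 745 after 42 °C, and 114 in the control, a gap of -1.93 at 1 h and -0.50 at 3 h. ATF3, a stress factor that pairs with JUN, was lower at 1 h and higher at 3 h on the probe set used, with 123 at 1 h and 375 at 3 h after 44 °C, against 191 and 196 after 42 °C, but its 2 other probe sets were higher at both times (0.17 to 0.77 at 1 h and 0.0240 to 1.28 at 3 h). DUSP1 had the same order, with 547 and 1009 after 44 °C, against 730.4 and 641 after 42 °C, and its 2 other probe sets ran from -1.44 to -0.0410 at 1 h and from -1.52 to 0.51 at 3 h, so neither gene has a settled course. Of 23 integrated stress response genes counted, 1 was 2-fold lower at 1 h (4.35%, against 2.04% of all genes), CHAC1, which degrades glutathione, at -2.05. Another was 2-fold higher at 3 h (4.35%, against 1.67%), ATF5 at 1.21. DDIT3, the factor CHOP of that pathway, read 78.6 and 91.5 after 44 °C, against 102 and 142 after 42 °C, and differed by -0.38 at 1 h and -0.63 at 3 h, with a limma adjusted p of 0.146. PPP1R15A, which restores translation, differed by -0.63 at 1 h and -0.15 at 3 h, and its other probe set by -1.20 at 1 h and -0.34 at 3 h. CEBPB, a leucine zipper factor of myeloid cells, read 1499 and 1225 after 44 °C, against 925 and 684 after 42 °C, and was called higher by limma (adjusted p = 0.0125).

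Of 27 proapoptotic genes counted, BMF was 2-fold lower at 1 h (3.7%, against 2.04% of all genes). CASP10 was 2-fold higher at 3 h on a signal near the floor (3.7%, against 1.67%). PMAIP1 was the 1 limma call (3.7% lower, against 3.74% of all genes). That call was lost after quantile normalisation, where CYCS (cytochrome c) was the 1 limma call, as higher (adjusted p = 0.0351). PMAIP1, the BH3-only protein NOXA, read 794 at 1 h and 1326 at 3 h after 44 °C, against 1552 and 1715 after 42 °C, and 496 in the control, with differences of -0.97 at 1 h and -0.37 at 3 h (limma adjusted p = 0.037, and 0.0522 after quantile normalisation). All 4 heated values were above the control, and the 44 °C value at 1 h was the lowest of them. The other PMAIP1 probe set differed by -1.09 at 1 h and -0.24 at 3 h. The list's median was 0.0548 at 1 h and -0.0715 at 3 h, and 0.0373 and 0.0875 after quantile normalisation. Of 15 antiapoptotic genes none was past 2-fold or called by limma. No more than 2.04% of all genes were past 2-fold in any 1 direction at either time, so 0 of 15 is near that share. MCL1, a survival protein with a short life, read 1566 and 1524 after 44 °C, against 1356 and 1438 after 42 °C, and BCL2 read 174 and 141 after 44 °C, against 146 and 115 after 42 °C. The 5 other MCL1 probe sets ran from 0 to 0.995 at 1 h and from -0.67 to 0.34 at 3 h. The 2 other BCL2 probe sets ran from -0.65 to -0.15 at 1 h and from -0.54 to 0.42 at 3 h. CDKN1A, the cell cycle inhibitor p21, differed by -0.56 at 1 h and -0.29 at 3 h, with a limma adjusted p of 0.0916. No apoptosis gene named here was past 2-fold at both times.

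The scaling moved genes with bright signals as a group. In the brightest of 10 bins of genes the median difference was -0.13 at 1 h and -0.16 at 3 h, and in the brightest 1% (118 genes) it was -0.46 and -0.69, while after quantile normalisation the brightest 1% stood at 0.0152 and 0.0135. Ribosomal protein genes, many of them with bright signals, had medians of -0.50 at 1 h and -0.77 at 3 h over 55 genes, and limma called 45 of them lower (81.8%, against 3.74% of all genes). After quantile normalisation their medians were -0.00561 and 0.00423 and limma called none. The 14 housekeeping genes counted behaved the same way, with -0.40 and -0.57, and 0.0482 and 0.0596 after quantile normalisation. Among the 1189 genes of the brightest bin limma called 29 higher and 222 lower, and 77 and 48 after quantile normalisation. A lower signal of a bright gene at 44 °C cannot be told apart from this shift, and RNA per cell was not measured.

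**Figure D4:**
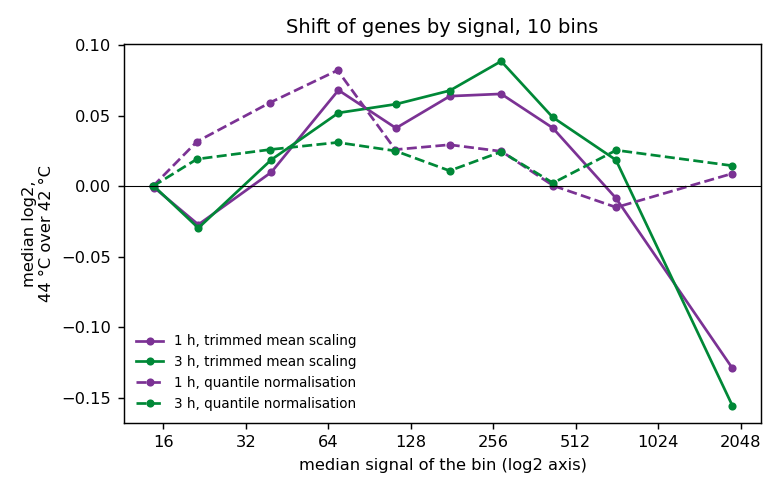
Median log2 of the 44 °C over the 42 °C signal in 10 bins of genes ordered by signal (horizontal axis, log2 spacing), at 1 h (purple) and 3 h (green); solid lines are trimmed mean scaling and dashed lines quantile normalisation. The solid lines drop to -0.13 and -0.16 in the brightest bin and the dashed lines do not.

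Most markers of the cell line with a probe set were above the floor on at least 2 of the 4 arrays. Of 17 monocyte and myeloid markers with a probe set, 14 were counted and none was past 2-fold. No more than 2.04% of all genes were past 2-fold in any 1 direction at either time, so 0 of 14 is near that share. The summed signal of these markers was 11099 and 11075 at 1 h and 3 h after 44 °C, against 13169 and 12160 after 42 °C. CEBPA, a myeloid transcription factor, was the marker limma called higher, at 1374 and 948 after 44 °C, against 933 and 574 after 42 °C, and LYZ, lysozyme, the one called lower (-0.46 at 1 h and -0.37 at 3 h, and -0.34 and -0.17 after quantile normalisation, where limma made no call). Each is 1 of 14 (7.14%), where limma called 3.87% of all genes higher and 3.74% lower. Of the markers of other cell types, T cell, B cell, epithelial and fibroblast, and erythroid lists had 4, 5, 3 and 3 genes counted. IL7R, described above, was the 1 of these past 2-fold at both times.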

How the data were processed

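Total RNA was copied to cDNA in one cycle, and cRNA made from it with biotin was hybridised to Affymetrix arrays that read the 3′ end of transcripts, per the labels' protocols. Intensities as deposited are on a linear scale, with 1 value for each probe set and array, and are MAS5 signals per the submitters' processing notes, and their scaling target is not given in the sources used here. Each array was scaled to a 2% trimmed mean of 100 over 54675 probe sets less 62 controls, floored at the median of all scaled values (12.5) and taken to log2 (pandas 2.3.3, R 4.3.3). A single gene symbol was given for 41097 probe sets by the platform's annotation; the 1801 with several and the 11777 it does not list were left unnamed. The brightest probe set stood for each gene.

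Genes were counted when above the floor on 2 or more of the 4 arrays, and called past 2-fold at each time. limma 3.58.1 fitted temperature with time as a block, with a trend in eBayes, on log2 signals, and was checked on simulated data. Named genes were the 12 highest and 12 lowest past 2-fold at both times and above the floor on all 4 arrays, ranked by the smaller difference and with no other probe set opposed by 0.5, then 5 per direction at the floor at 1 temperature, up to 5 such members of each of 38 lists, and a list of 26 stress genes. Other genes named were list members. Members, lists and rules were chosen with earlier results of these data known. Alternatives were quantile normalisation, other floors, the median over probe sets, other filters, no trend and no time block. The number of arrays limits the precision.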

Additional observations from a re-analysis of the deposited data

Results flagged for a closer look

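For 5 genes the 44 °C signal was 2-fold or more higher at one recovery time and 2-fold or more lower at the other, so that both arrays at 1 h lay in the opposite order to those at 3 h. With 1 array per condition the difference between the times was not tested, and these are 5 of 11889 genes. GPR183, a receptor for oxysterols that guides leukocytes, differed by 2.02 at 1 h and -1.67 at 3 h, with signals of 183 and 87.8 after 44 °C, against 45.0 and 280.0 after 42 °C. CD69, an early activation antigen of leukocytes, differed by 1.06 and -1.58, with signals of 82.3 and 71.3 after 44 °C, against 39.4 and 213 after 42 °C. After 42 °C both genes were lower at 1 h than at 3 h, while after 44 °C they changed less between the times. The control read 522 for GPR183 and 154 for CD69. GPR183 was thus below the control on all 4 arrays, and CD69 on all but the 42 °C array at 3 h. INHBB, a chain of activin B, differed by 1.86 and -1.17. ELK2AP differed by -1.07 and 2.11, and LOC101927166 by -1.84 and 1.2.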

How the results depend on the processing

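Under quantile normalisation 28 of the 29 higher and 28 of the 34 lower genes at both times were past 2-fold as well, while limma called 224 lower. There the median reversed for housekeeping genes (0.0482 at 1 h, 0.0596 at 3 h), ribosomal proteins (0.0042 at 3 h) and tRNA synthetases (0.0115 at 3 h). Some smaller medians changed sign too, such as those of proapoptotic genes (-0.0715 to 0.0875 at 3 h) and NRF2 targets (-0.0875 to 0.0338 at 3 h). Of 69 named gene differences past 2-fold, 67 kept that size under quantile normalisation. With the floor at the 75th percentile only 37 of the 69 did, and with the median over a gene's probe sets 52 did. That median kept 17 of the 29 higher and 19 of the 34 lower genes at both times. With the floor at the 25th percentile, 1218 genes were higher and 1381 lower at 1 h, 1172 and 1568 at 3 h, and 226 and 335 at both. With the floor at the 75th percentile the counts were 59 and 54, 45 and 29, and 8 and 10, and limma called 300 and 254. Over genes above the floor on all 4 arrays, 142 were lower at 1 h, 109 at 3 h and 18 at both, and limma called 663 higher and 593 lower. With the median over a gene's probe sets 115 genes were higher at 3 h, and the antiapoptotic median at 3 h was -0.0352. limma called 0 higher and 0 lower with that median (1122 and 1303 at an unadjusted p under 0.05), with no filter on dim genes (0 and 0, and 1161 and 1034), without a trend (0 and 0, and 1291 and 1095) and with no time block (0 and 0, and 998 and 916), so its calls rest on the settings used. No named gene difference past 2-fold changed sign under quantile normalisation, other floors or the median over probe sets, but smaller ones did, such as HSPA6 at 3 h and NPM1 under quantile normalisation. Time was the block of the limma model; no fit with a replicate block was possible because the labels give no replicate numbers, and with 1 array per condition no array could be left out. Signals near the floor bound the fold of dim genes.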

Other observations

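Nucleolar and cell division genes held a few differences that ran the same way at both times. RRS1, which assembles the large ribosomal subunit, read 649.9 and 458 after 44 °C, against 326 and 162 after 42 °C, and 786 in control cells, with differences of 0.99 at 1 h and 1.51 at 3 h. NIP7, another assembly factor, read 643 and 528 after 44 °C, against 321 and 288 after 42 °C, and 638 in the control, and differed by 1.00 at 1 h and 0.87 at 3 h. For both genes the 44 °C values were nearer the control. Of 35 ribosome assembly genes counted, limma called 4 higher and 1 lower (3.87% and 3.74% of all genes were), and 3 and 0 after quantile normalisation, and the lower one, NPM1, had differences of -0.43 at 1 h and -0.73 at 3 h that became 0.0561 and 0.0379 after quantile normalisation. Of 34 mitosis genes limma called 4 higher (KIF23, MAD2L1, NEK2 and TTK; 3.87% of all genes were) and none lower, with list medians of 0.0548 and 0.0482, and 2, MAD2L1 and TTK, after quantile normalisation. The other KIF23 probe set ran the opposite way, at -0.66 and -0.56. MAD2L1, a spindle checkpoint protein, read 1311 and 1487 after 44 °C, against 985 and 1121 after 42 °C.

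The size of small differences in respiratory and proteasome genes, and the sign of some of them, depended on the scaling, while the list medians stayed negative. Of 32 oxidative phosphorylation genes, 28 were negative at both times, with medians of -0.23 and -0.25 (-0.081 and -0.0527 after quantile normalisation), and of 38 proteasome genes 28 were, with -0.18 and -0.22 (-0.0664 and -0.0754). Over all genes 33.5% were negative at both times. After quantile normalisation 18 of the 32 and 21 of the 38 were, where 31.2% of all genes were. None in either list was past 2-fold at either time, where no more than 2.04% of all genes were in any 1 direction. Among 308 genes named as zinc fingers 13 were 2-fold higher and 7 lower at 1 h, and 7 higher and 2 lower at 3 h, which is 4.22%, 2.27%, 2.27% and 0.649%, where 1.66%, 2.04%, 1.67% and 1.49% of all genes were. COL1A1, a collagen chain that needs SERPINH1 for folding, read 35.2 and 85.3 after 44 °C, against 155 and 126 after 42 °C, and was at the floor in control cells, a gap of -2.14 at 1 h and -0.56 at 3 h, while its 2 other probe sets ran from -1.93 to 0.60 and from -1.55 to -0.49. UBQLN2, a ubiquilin that shuttles proteins to the proteasome, ran against the chaperones, with 684 and 696 after 44 °C, against 481 and 326 after 42 °C and differences of 0.51 at 1 h and 1.09 at 3 h (limma adjusted p = 0.0265), though its other probe set differed by -0.20 and 0.63.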
